A study of Homo sapiens with 6 samples.

Results

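Genes that build and run the DNA replication fork were read in RNA from a human cell line given mimics of the small RNA piR-36249. The set holds 40 genes of origin licensing, the replicative helicase, the polymerases, the sliding clamp and fork protection, out of 58051 genes in the expression table, and was chosen as a named list of genes rather than by any measured value. The list was nevertheless drawn up with earlier results of these libraries known. All 40 were matched by symbol to an Ensembl identifier in the table, and all 40 passed the filter on low values.

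The cells were labelled NTera-2 (NT2), an embryonal carcinoma line. The 6 RNA-seq libraries were 3 of cultures with piR-36249 mimics and 3 of cultures with a scramble of the same small RNA as control. The piRNAs guide PIWI proteins and are best known for silencing transposons in the germ line. Overexpression by mimics is what the titles and treatment labels give, while the genotype field of the same libraries, like the series' design text, names a knockdown. Groups were taken from the titles. No genetic change is recorded in the control, and neither dose, time nor separate culture is recorded for any library, so each p-value rests on the spread among these libraries alone, which may be technical.

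DNA replication starts at origins bound by the origin recognition complex (ORC). In G1 phase CDC6 and CDT1 load the ring-shaped MCM2-7 helicase there, a step called licensing, and geminin blocks CDT1 afterwards so that no origin is used again in the same cycle. In S phase the kinase CDC7 with its partner DBF4, helped by MCM10, turns the ring into the active CMG helicase, which joins CDC45 and the GINS complex to MCM2-7. Polymerase alpha with primase then starts each strand, polymerases delta and epsilon extend it on the clamp PCNA loaded by the RFC complex, RPA coats the exposed single strand, and FEN1 and LIG1 finish Okazaki fragments. Many of these genes are known targets of E2F factors and are transcribed around the G1 to S transition.

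Values are FPKM, which scale reads to gene length and library depth, as computed by the authors. By the step of the FPKM values, the depth they were scaled to was 48.0 to 62.7 M reads per library, which need not be all reads sequenced. At these depths a member had between 370 reads (CDC7) and 23305 reads (MCM7) in a library, with a median of 2439.5. Across genes, log2 profiles of libraries correlated at 0.994 to 0.996 inside a group, and at 0.985 to 0.988 between mimic and scramble. The labelled cell type was checked against 12 markers: 5 of them, NANOG, SOX2, TDGF1, SALL4 and L1TD1, were listed at 0 in every library, and POU5F1 averaged 0.0534 FPKM in mimic and 0.0524 FPKM in scramble libraries. On the same list PODXL averaged 323.2 FPKM in mimic and 270.2 FPKM in scramble libraries, LIN28B averaged 14.1 FPKM in mimic and 11.0 FPKM in scramble libraries, and DNMT3B averaged 5.15 FPKM in mimic and 3.13 FPKM in scramble libraries. Of 8 endothelial markers 5 were above 1 FPKM in every library, and CDH5 averaged 124.4 ± 2.69 FPKM in mimic and 88.0 ± 1.62 FPKM in scramble libraries (SD, n = 3 each). KDR, VWF and CLDN5 of the endothelial list had means under 0.5 FPKM. LIN28A, ZFP42 and DPPA4 of the embryonal carcinoma list also had means under 0.5 FPKM. In that list 9 of the 12 markers were thus below the filter on low values. The markers go largely against the label and match no list fully, and the cells are named below by their treatment only.

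Replication genes fell by small amounts in the mimic libraries, with at least 1 member lower in every complex but the clamp. In origin recognition, flap processing and fork protection this was 1 of 2 members. The calls of LIG1 in flap processing and TIPIN in fork protection depended on the settings. Of the 40 members 28 fell, none rose and 12 did not pass the test. The test was limma on log2(FPKM + 1) over all 12912 genes that averaged 0.5 FPKM or more, with Benjamini-Hochberg adjusted p under 0.05. At an unadjusted p under 0.05, 34 members were lower and none higher. The share of all genes at that threshold was not computed, so this count cannot be judged against a background. Voom on reads recovered from the FPKM values gave 28 members lower and none higher, where 2337 of 12871 genes were lower and 2700 higher. By the limma rule with adjusted p, 16.8% of all tested genes were lower, 18.7% were higher and 35.5% passed in either direction. Log2 fold changes, always mimic minus scramble on that scale, had a median of -0.19 over the members and 0.00 over all tested genes, and ran from -0.63 in CDC7 to 0.09 in GINS1. As ratios of mean FPKM, mimic over scramble, the 28 lay between 0.561 and 0.894. In RNA from a whole culture, fewer cells in S phase and less of each RNA per cell cannot be told apart.

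The libraries of the groups also separated gene by gene. In 34 members every mimic library lay below every scramble library, in 6 the groups overlapped, and in none did every mimic library lie above. Over all tested genes 23.2% lay entirely below and 26.0% entirely above. For each of those 34 an exact two-sided permutation test over the libraries gave p = 0.1, and 3 against 3 cannot go lower. None of the 40 was in the authors' deposited table of 401 genes, whose smallest absolute log2 fold change was 1. Endothelial markers moved with the groups as well: all 5 that were tested rose, and the sum of all 8 lay between 264.1 and 271.6 FPKM in mimic and between 205.7 and 213.1 FPKM in scramble libraries. Among the 12 embryonal carcinoma markers 9 were below the filter, and the 3 that were tested, LIN28B, PODXL and DNMT3B, all rose. The 12 summed to between 326.3 and 370.0 FPKM in mimic and between 260.0 and 306.5 FPKM in scramble libraries. PODXL alone averaged 323.2 FPKM in mimic and 270.2 FPKM in scramble libraries, so these sums mostly reflect 1 gene. The 8 fibroblast markers, with THY1 alone above 1 FPKM, summed to between 6.57 and 7.09 FPKM in mimic and between 4.68 and 5.01 FPKM in scramble libraries. The part of these markers in the result was not tested.

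**Figure D1:**
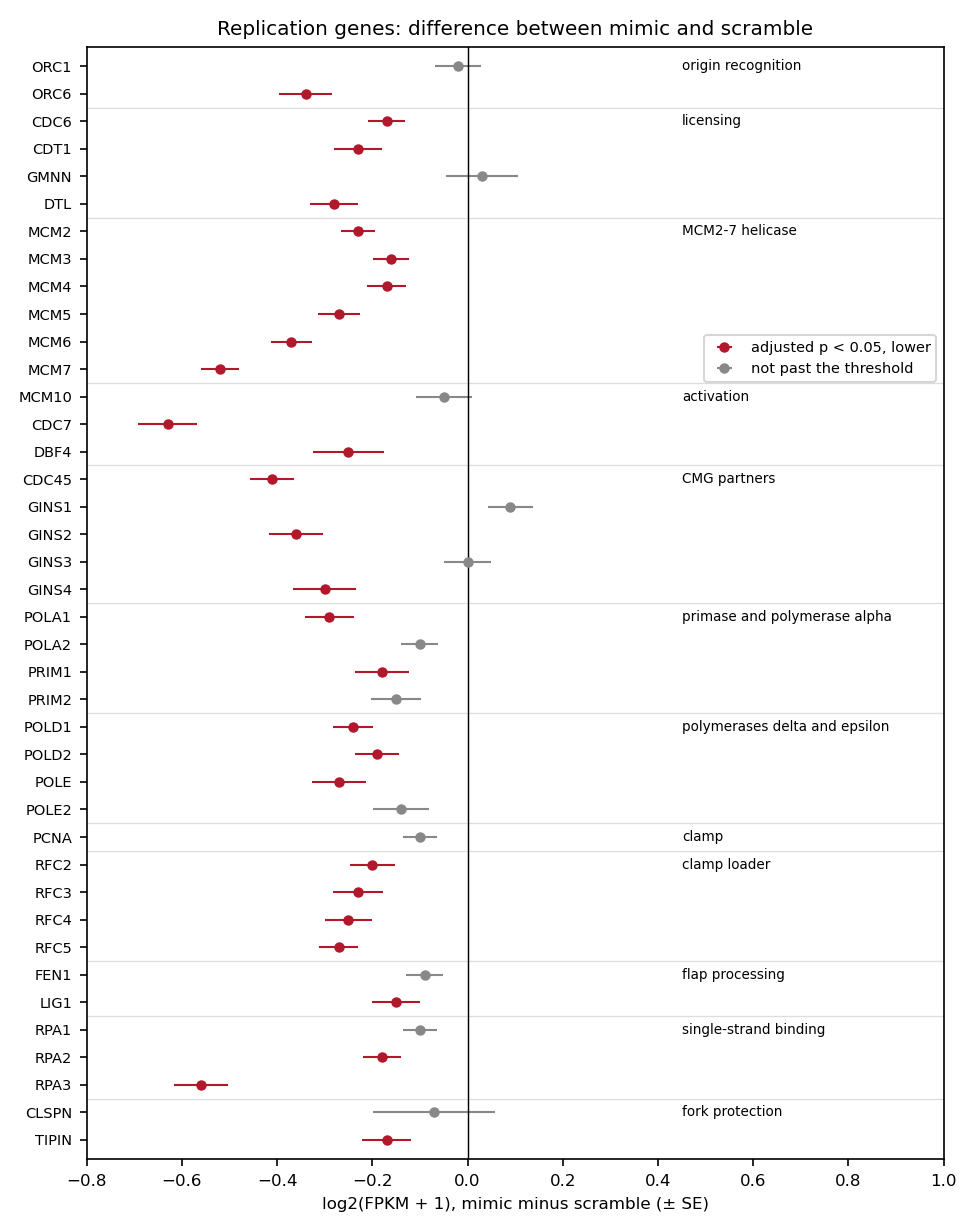
Log2 fold change of each of the 40 members on log2(FPKM + 1), mimic minus scramble, with bars for the SE, ordered by complex. The 28 members that passed the test, in red, all lie left of 0, and CDC7, RPA3 and MCM7 lie farthest out.

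Since the members moved largely together, the 250 bases before their RefSeq start sites were read for short words. Promoters of 35 of the 40 were in the RefSeq table (GRCh38.p14); RPA2, RPA3, MCM4, MCM5 and GINS4 are named only. Words were searched on both strands: TTTGGCGC, TTTCCCGC, TTTCGCGC and TTTGCCGC for E2F, TTTGAA for the cell cycle homology region (CHR), CCAAT for the CCAAT box, GGGCGG for the GC box, and the palindromic NRF1 word. The upstream bases of CDC7, MCM7, MCM6 and CDC45 are shown because these are the members with the smallest p among those in the table. Those of GMNN and PCNA are shown as members that did not pass the test. Only 3 of the 12 such members have an E2F word upstream, and GMNN and PCNA are among these 3. Capitals mark E2F and CCAAT words on either strand. The CDC7 bases are chr1:91500862-91501111, plus strand; MCM7, chr7:100101398-100101647, minus strand; MCM6, chr2:135876444-135876693, minus strand; CDC45, chr22:19479670-19479919, plus strand; GMNN, chr6:24775163-24775412, plus strand; and PCNA, chr20:5126623-5126872, minus strand. Each is written 5′ to 3′ on the gene's strand and ends at the base before the RefSeq start, which for 5 of the 6, all but MCM6, lies inside the gene as annotated in GENCODE.
CDC7: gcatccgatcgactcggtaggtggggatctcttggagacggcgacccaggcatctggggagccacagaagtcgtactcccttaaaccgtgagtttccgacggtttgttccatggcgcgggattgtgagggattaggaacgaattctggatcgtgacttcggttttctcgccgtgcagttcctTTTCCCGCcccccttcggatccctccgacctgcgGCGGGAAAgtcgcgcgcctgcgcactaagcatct
MCM7: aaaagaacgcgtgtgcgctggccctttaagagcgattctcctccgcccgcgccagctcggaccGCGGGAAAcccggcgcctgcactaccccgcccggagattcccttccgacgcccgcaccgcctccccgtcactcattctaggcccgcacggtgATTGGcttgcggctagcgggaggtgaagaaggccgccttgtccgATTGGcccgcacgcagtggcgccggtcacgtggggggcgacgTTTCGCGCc
MCM6: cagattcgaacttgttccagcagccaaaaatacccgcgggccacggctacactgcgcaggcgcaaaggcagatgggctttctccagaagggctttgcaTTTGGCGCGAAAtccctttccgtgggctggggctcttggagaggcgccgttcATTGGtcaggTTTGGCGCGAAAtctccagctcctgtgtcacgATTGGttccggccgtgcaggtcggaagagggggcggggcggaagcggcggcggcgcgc
CDC45: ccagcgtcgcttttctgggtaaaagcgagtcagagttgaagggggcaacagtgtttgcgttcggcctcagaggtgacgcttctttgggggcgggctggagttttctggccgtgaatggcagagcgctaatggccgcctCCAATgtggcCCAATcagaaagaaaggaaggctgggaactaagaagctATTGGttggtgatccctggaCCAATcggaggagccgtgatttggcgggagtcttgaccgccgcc
GMNN: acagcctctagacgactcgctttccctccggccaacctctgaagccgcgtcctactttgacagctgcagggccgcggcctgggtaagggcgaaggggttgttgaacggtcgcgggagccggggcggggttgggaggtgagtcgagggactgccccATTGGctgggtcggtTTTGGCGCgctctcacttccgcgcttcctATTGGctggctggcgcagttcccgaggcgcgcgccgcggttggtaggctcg
PCNA: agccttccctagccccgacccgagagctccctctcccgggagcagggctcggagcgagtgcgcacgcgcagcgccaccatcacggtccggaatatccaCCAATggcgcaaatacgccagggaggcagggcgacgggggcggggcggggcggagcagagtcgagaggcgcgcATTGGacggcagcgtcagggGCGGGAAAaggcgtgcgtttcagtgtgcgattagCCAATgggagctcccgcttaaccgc

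An E2F word lay upstream of 15 of the 35 members (42.9%), against 3.40% of the 27305 genes in the table, expressed here or not. A gene counted if any of its RefSeq starts had the word, so genes with more starts had more windows. Of all 35116 starts 2.79% had an E2F word. MCM6 had 4 matches, as 2 runs that each hold overlapping words on opposite strands. MCM7 and CDC7 had 2 matches each, and the nearer one of MCM7 ended 2 bases before the start. The word was present in 12 of the 23 members that fell and have an entry, and in 3 of the 12 that did not pass the test, namely GMNN, PCNA and POLA2. CDC45, which fell, had none of the E2F words in this window and 4 CCAAT words. Only exact matches of the listed words were counted, so a missing match does not show that an E2F site is absent.

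CCAAT words were found upstream of 21 of 35 members (60.0%, against 37.0% of all genes), GC boxes upstream of 26 (74.3%, against 46.2%) and the NRF1 word upstream of CDT1 and ORC6 (5.71%, against 1.28%). The CHR word, known from genes of late cell cycle stages, was upstream of none of the 35, against 16.1% of all genes. E2F and GC box words can share bases: this was so for 3 of the 21 E2F matches, in CDC7, LIG1 and PCNA. These are matches of letters in a window and do not show that a factor binds.

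**Figure D2:**
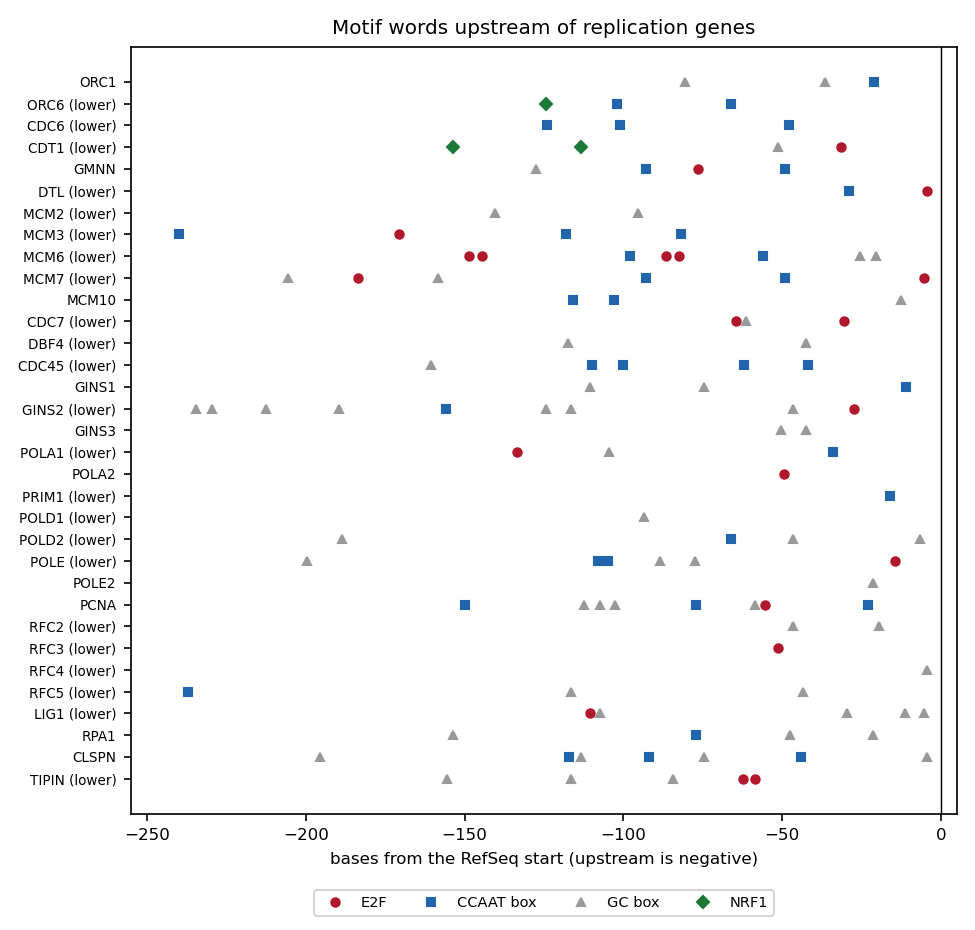
Positions of E2F, CCAAT box, GC box and NRF1 words in the 250 bases upstream of the RefSeq start, in bases from the start, for the 33 members with at least 1 word; where a gene has several starts, the entry with most E2F words is drawn. The CCAAT word counted for TIPIN lies at another start and is not drawn. Genes marked lower passed the test, and E2F words are present among marked and unmarked genes.

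At the origin, ORC6 fell and ORC1 did not pass the test, nor did ORC2 to ORC5 of the list of further genes. ORC6, the subunit outside the core ring of ORC that is also known from cytokinesis, had 9.45, 8.91 and 9.39 FPKM in mimic libraries, against 12.0, 11.2 and 12.7 FPKM in scramble libraries. All mimic values lay below all scramble values, and ORC6 fell (log2 fold change -0.34, SE 0.055, limma adjusted p = 0.00263). ORC1, the largest ATPase subunit of ORC, had 11.2, 10.6 and 11.4 FPKM in mimic libraries, against 11.4, 10.8 and 11.6 FPKM in scramble libraries. Its groups overlapped (log2 fold change -0.02, 95% confidence interval -0.13 to 0.09). The log2 ratio of ORC6 to ORC1 within a library averaged -0.26 ± 0.02 in mimic and 0.08 ± 0.04 in scramble libraries (SD, n = 3 each).

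Of the 4 licensing genes 3 fell. DTL, the adaptor that sends CDT1 to destruction through the CUL4 ubiquitin ligase, had 7.0, 7.91 and 7.51 FPKM in mimic libraries, against 9.46, 9.21 and 9.25 FPKM in scramble libraries. The groups did not overlap, and DTL fell by 0.28 on the log2 scale (limma adjusted p = 0.00408). The loader CDT1 fell by 0.23 and the ATPase CDC6 by 0.17, to 0.848 and 0.883 of their scramble FPKM. CDC6 lost its call without mimic replicate 3 (adjusted p = 0.051). Geminin (GMNN), the inhibitor of CDT1, had 9.73, 8.06 and 8.89 FPKM in mimic libraries, against 8.18, 8.39 and 9.49 FPKM in scramble libraries. The groups were interleaved, and its log2 fold change of 0.03 had a 95% confidence interval from -0.15 to 0.21.

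All 6 subunits of the MCM2-7 helicase fell, and in each of them every mimic library lay below every scramble library. MCM7 (chromosome 7, 100092728 to 100101940, minus strand, GRCh38), the subunit with the largest difference, had 60.1, 58.6 and 61.5 FPKM in mimic libraries, against 84.7, 84.9 and 90.0 FPKM in scramble libraries. Its log2 fold change was -0.52 (SE 0.040, limma adjusted p = 9.69e-05). MCM6 (chromosome 2, 135839626 to 135876426, minus strand), which sits in the catalytic core with MCM4 and MCM7, had 22.0, 21.7 and 20.7 FPKM in mimic libraries, against 27.2, 29.1 and 27.9 FPKM in scramble libraries. It fell by 0.37. The mimic values of both genes were tight and stood clear of the scramble values.

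The other MCM subunits had log2 fold changes closer to 0. MCM5 had 17.1, 16.8 and 17.5 FPKM in mimic libraries, against 21.0, 19.8 and 21.6 FPKM in scramble libraries, a fall of 0.27 on the log2 scale. MCM2 had 41.3, 42.0 and 40.9 FPKM in mimic libraries, against 49.9, 48.1 and 48.3 FPKM in scramble libraries, a fall of 0.23. MCM2 and MCM5 flank the gate through which the ring opens on DNA. MCM4 had 32.6, 32.7 and 31.3 FPKM in mimic libraries, against 37.6, 36.0 and 35.1 FPKM in scramble libraries, a fall of 0.17. MCM3 had 78.7, 78.7 and 77.8 FPKM in mimic libraries, against 89.9, 88.9 and 84.2 FPKM in scramble libraries, a fall of 0.16.

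MCM3 and MCM4 were the subunits whose calls depended on the settings: each was lost on the TPM scale (adjusted p = 0.0521 and 0.0518), without mimic replicate 3 (0.0552 and 0.0641) and without scramble replicate 1 (0.0656 and 0.0683). The call of MCM3 was lost also without scramble replicate 2 (0.0526). Summed over the 6 genes, the helicase had 251.8, 250.5 and 249.6 FPKM in mimic libraries, against 310.4, 306.8 and 307.1 FPKM in scramble libraries, a ratio of 0.814. The sum is not an amount of complex, since the subunits are used in equal numbers and their RNA levels differ.

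**Figure D3:**
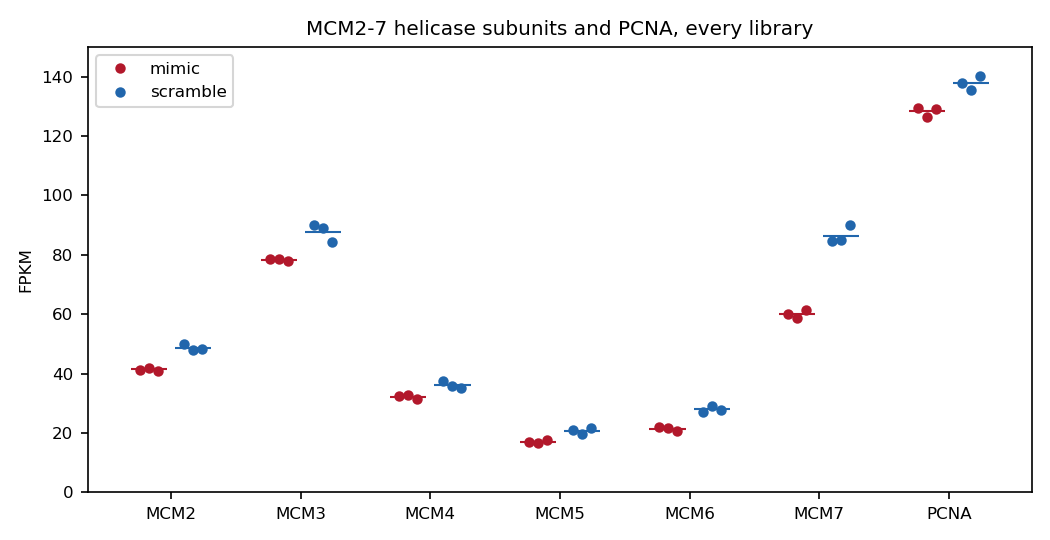
FPKM of MCM2 to MCM7 and PCNA in every library (points) with group means (lines), mimic left of scramble, on a linear axis that starts at 0. No mimic point reaches the lowest scramble point of its gene, and the widest gap is in MCM7.

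Among the genes that fire licensed origins, the kinase CDC7 fell most of all members. CDC7 (chromosome 1, 91500893 to 91525764, plus strand, GRCh38) had 2.35, 2.33 and 2.17 FPKM in mimic libraries, against 3.74, 4.34 and 4.12 FPKM in scramble libraries. The groups stood far apart, with a ratio of means of 0.561 and a log2 fold change of -0.63 (SE 0.061, limma adjusted p = 0.000278). With a pseudocount of 0.01, which shrinks low values less, its log2 fold change was -0.83. DBF4, the regulatory subunit that activates CDC7, fell by 0.25 (limma adjusted p = 0.0332).

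The call of DBF4 did not hold in 6 of 16 alternatives, among them leaving out mimic replicate 1 or 3 or scramble replicate 2 or 3, with adjusted p up to 0.11. MCM10, which helps the helicase to open DNA, had 5.52, 6.0 and 5.09 FPKM in mimic libraries, against 5.69, 5.74 and 5.82 FPKM in scramble libraries. The mimic libraries spread on both sides of the scramble ones (log2 fold change -0.05, 95% confidence interval -0.18 to 0.09).

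Of the 5 CMG partners 3 fell. CDC45 (chromosome 22, 19479459 to 19520612, plus strand, GRCh38), the link between MCM2-7 and GINS, had 10.3, 9.96 and 10.5 FPKM in mimic libraries, against 13.3, 14.1 and 14.6 FPKM in scramble libraries. Its groups did not overlap, and it fell by 0.41 on the log2 scale (limma adjusted p = 0.000537). Of the 4 subunits of the GINS ring, GINS2 fell by 0.36 and GINS4 by 0.30, to 0.761 and 0.763 of scramble FPKM. GINS3, by contrast, had 7.47, 7.55 and 7.26 FPKM in mimic libraries, against 7.85, 7.07 and 7.30 FPKM in scramble libraries, with overlapping groups and a 95% confidence interval from -0.11 to 0.12.

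GINS1, added here after its values were seen, had the highest log2 fold change of all members. It had 15.8, 16.1 and 15.7 FPKM in mimic libraries, against 15.7, 14.2 and 14.6 FPKM in scramble libraries. The groups overlapped slightly, and the log2 fold change of 0.09 did not pass the test (95% confidence interval -0.02 to 0.20, limma adjusted p = 0.167). The proteins of the GINS ring are known to be present in equal numbers.

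**Figure D4:**
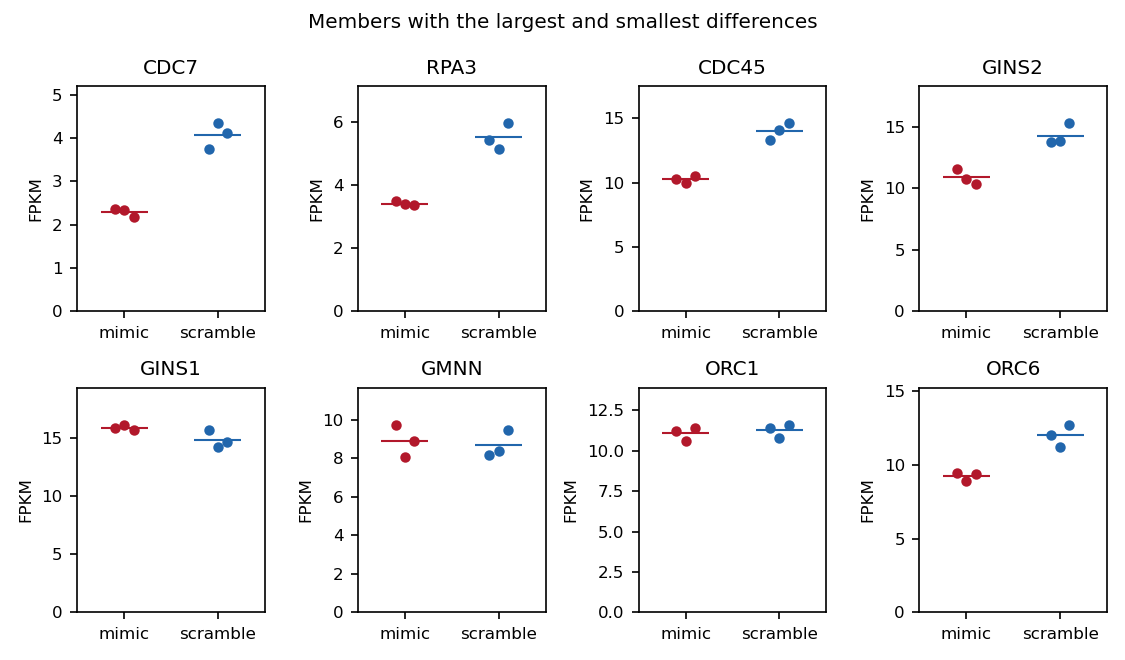
FPKM of 8 members in every library (points) with group means (lines), mimic left of scramble, each panel on its own linear axis from 0. CDC7, RPA3, CDC45, GINS2 and ORC6 separate the groups, while the points of GINS1, GMNN and ORC1 overlap.

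Polymerase alpha and primase make the RNA-DNA primer of every Okazaki fragment, and 2 of their 4 genes fell. The catalytic subunit POLA1 had 1.77, 1.80 and 1.78 FPKM in mimic libraries, against 2.47, 2.44 and 2.32 FPKM in scramble libraries. These were the lowest levels of the set, yet the groups were clearly apart (log2 fold change -0.29, limma adjusted p = 0.00408). The accessory subunit POLA2 had 14.1, 14.1 and 14.2 FPKM in mimic libraries, against 15.1, 14.7 and 15.6 FPKM in scramble libraries. POLA2 did not pass the test (log2 fold change -0.10, adjusted p = 0.0927), although its groups did not overlap. The primase subunit PRIM1 fell by 0.18 (adjusted p = 0.0405), a call lost in 8 of 16 alternatives with adjusted p up to 0.115, and PRIM2 gave -0.15 (adjusted p = 0.0602).

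Polymerases delta and epsilon have 8 subunit genes, of which 4 fell, 1 rose and 3 did not pass the test. Of the 4 that are members 3 fell. POLD1, the catalytic subunit of the lagging strand polymerase delta, had 21.7, 21.1 and 23.1 FPKM in mimic libraries, against 26.3, 26.2 and 26.0 FPKM in scramble libraries. The scramble libraries were nearly equal and all above the mimic ones (log2 fold change -0.24, limma adjusted p = 0.0035). POLE, the catalytic subunit of the leading strand polymerase epsilon, fell by 0.27, and POLD2, the second subunit of polymerase delta, by 0.19. POLE2 had 7.82, 6.99 and 8.02 FPKM in mimic libraries, against 8.30, 8.29 and 8.92 FPKM in scramble libraries. Its groups did not overlap, but it did not pass the test (log2 fold change -0.14, adjusted p = 0.0948). Of the 4 accessory subunits on the list of further fork genes, POLE4 fell by 0.27 (limma adjusted p = 0.0245), POLD4 rose by 0.34, and POLD3 and POLE3 each gave -0.03.

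PCNA, the clamp that holds polymerases and many other proteins on DNA, was the most abundant member. It had 129.5, 126.5 and 129.0 FPKM in mimic libraries, against 137.8, 135.4 and 140.4 FPKM in scramble libraries. Every mimic library lay below every scramble library, but the difference was small (ratio 0.931, log2 fold change -0.10) and just missed the threshold (limma adjusted p = 0.0537). It passed at a filter of 5 FPKM (0.0487).

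Of the 5 subunits of the RFC clamp loader 4 fell, by 0.20 to 0.27 on the log2 scale, and these 4 are the members. The large subunit RFC1, from the list of further fork genes, averaged 5.14 ± 0.336 FPKM in mimic and 5.11 ± 0.26 FPKM in scramble libraries and did not pass the test (log2 fold change 0.01, limma adjusted p = 0.928). RFC5 had 10.7, 11.1 and 11.0 FPKM in mimic libraries, against 13.1, 13.2 and 13.9 FPKM in scramble libraries (log2 fold change -0.27, limma adjusted p = 0.00208). RFC2 had 29.7, 29.7 and 28.7 FPKM in mimic libraries, against 34.0, 32.0 and 35.7 FPKM in scramble libraries (log2 fold change -0.20). Both subunits showed lower values in all mimic libraries. RFC2 lost its call without mimic replicate 3 (adjusted p = 0.0562). RFC3 and RFC4 gave -0.23 and -0.25.

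For Okazaki fragment processing, the flap nuclease FEN1 had 73.8, 70.5 and 69.6 FPKM in mimic libraries, against 77.8, 74.6 and 75.8 FPKM in scramble libraries. The groups were close but did not overlap, and FEN1 did not pass the test (log2 fold change -0.09, limma adjusted p = 0.102). The ligase LIG1 had 6.25, 6.17 and 5.98 FPKM in mimic libraries, against 7.24, 6.52 and 7.03 FPKM in scramble libraries. LIG1 fell by 0.15 with adjusted p = 0.0483, a call lost in 9 of 16 alternatives with adjusted p up to 0.161.

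RPA is a trimer that coats single-stranded DNA, and 2 of its 3 genes fell. RPA3 (chromosome 7, 7636518 to 7718607, minus strand, GRCh38), the small subunit, had 3.48, 3.39 and 3.37 FPKM in mimic libraries, against 5.45, 5.16 and 5.96 FPKM in scramble libraries. The groups were far apart, with a ratio of 0.618 and a log2 fold change of -0.56 (SE 0.057, limma adjusted p = 0.000314). RPA1, the large DNA-binding subunit, had 33.4, 35.2 and 34.2 FPKM in mimic libraries, against 37.5, 36.7 and 36.4 FPKM in scramble libraries. RPA1 did not pass the test (log2 fold change -0.10, adjusted p = 0.0612), and RPA2, the subunit phosphorylated under replication stress, fell by 0.18. In reads, RPA3 had 522 to 659 in mimic and 880 to 1106 in scramble libraries, over an exon length of 3232 bases.

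Of the members in fork protection TIPIN fell and CLSPN did not pass the test. TIPIN, the partner of TIMELESS, had 6.41, 6.23 and 6.51 FPKM in mimic libraries, against 7.40, 6.87 and 7.71 FPKM in scramble libraries. It fell by 0.17 (limma adjusted p = 0.0342), a call lost in 6 of 16 alternatives with adjusted p up to 0.101. TIMELESS itself, from the list of further fork genes, averaged 36.5 ± 0.622 FPKM in mimic and 40.8 ± 1.5 FPKM in scramble libraries and fell by 0.15 (limma adjusted p = 0.0206). CLSPN, which carries the checkpoint signal to the kinase CHK1, had 7.20, 8.37 and 6.11 FPKM in mimic libraries, against 8.17, 8.56 and 6.25 FPKM in scramble libraries. It had the largest SE of the members (0.128), and replicate 3 of each group lay well below the others of its group (log2 fold change -0.07, 95% confidence interval -0.37 to 0.22).

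Because partners within complexes differed, their ratios were compared within each library, for 9 ratios chosen after the values were seen. The log2 ratio of MCM7 to the mean of MCM2 to MCM6 averaged 0.87 ± 0.05 in mimic and 1.15 ± 0.06 in scramble libraries (SD, n = 3 each), a difference of -0.28. For CDC7 to DBF4 it averaged -1.44 ± 0.09 in mimic and -0.90 ± 0.04 in scramble libraries, a difference of -0.55. RPA3 to RPA1 and RPA2 differed by as much, with -3.62 ± 0.03 in mimic and -3.07 ± 0.08 in scramble libraries. In all 3 ratios the gene named first was lower against its partners in every mimic library than in any scramble library.

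Ratios in the opposite direction were those of GINS1 and GINS3 to the mean of GINS2 and GINS4, which differed by 0.49 and 0.40. The ratio of CDT1 to its inhibitor geminin averaged 1.33 ± 0.12 in mimic and 1.60 ± 0.06 in scramble libraries, a difference of -0.27. That of POLA1 to POLA2, PRIM1 and PRIM2 differed by -0.27 too, and that of MCM6 to MCM2 to MCM5 by -0.18. Each of the 9 gave p = 0.1 in an exact two-sided permutation test, the smallest possible here, and 0.1 after Benjamini-Hochberg adjustment over the 9. Since these genes were picked for their differences, the values are a description.

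**Figure D5:**
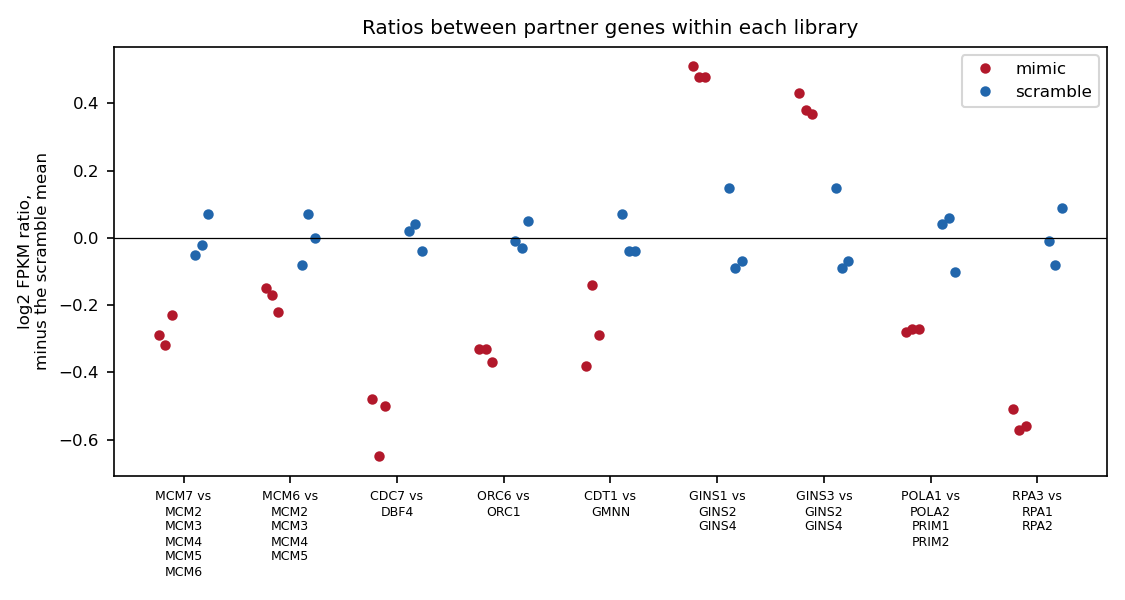
Log2 ratio of FPKM between partner genes within each library, drawn after subtracting the scramble mean, for the 9 ratios, mimic left of scramble. The ratios of GINS1 and GINS3 to GINS2 and GINS4 lie above the scramble libraries, and the other 7 lie below them.

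Other genes of the process moved in both directions. Of 42 further origin and fork genes 41 were tested, of which 16 fell (39.0%) and 2 rose (4.88%), against 16.8% and 18.7% of all tested genes. MCMBP, which binds MCM subunits outside chromatin, averaged 26.4 ± 0.234 FPKM in mimic and 34.5 ± 1.04 FPKM in scramble libraries (log2 fold change -0.37, limma adjusted p = 0.000294). The maintenance methyltransferase DNMT1, which travels with PCNA, fell by 0.33, and RNASEH2A, a subunit of the enzyme that removes ribonucleotides from DNA, by 0.25. POLD4, the smallest subunit of polymerase delta, rose instead, with 6.41 ± 0.146 FPKM in mimic and 4.84 ± 0.25 FPKM in scramble libraries (log2 fold change 0.34). The histone chaperone ASF1A also rose (0.28), while its paralog ASF1B fell (-0.28); ASF1A and ASF1B were named after their values were seen.

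Of 27 regulators of S phase entry 25 were tested, of which 5 fell (20.0%) and 3 rose (12.0%), against 16.8% and 18.7% of all tested genes, so the share that fell was near the background. E2F1, an activating E2F factor, averaged 12.9 ± 0.443 FPKM in mimic and 16.2 ± 1.26 FPKM in scramble libraries (log2 fold change -0.30, limma adjusted p = 0.00679). E2F7, a repressor of E2F targets, averaged 14.8 ± 0.831 FPKM in mimic and 9.77 ± 0.993 FPKM in scramble libraries (0.56, adjusted p = 0.00108). The kinase CDK2 fell by 0.19 and its binding protein CKS1B by 0.17. The other genes of this list that passed the test went both ways and were named after their values were seen. RB1, the retinoblastoma protein that restrains E2F, rose by 0.24 and TFDP2, a dimer partner of E2F factors, by 0.23. RBL1, a pocket protein related to RB1, fell by 0.23 (limma adjusted p = 0.0498), and the activating factor E2F2 fell by 0.15 (adjusted p = 0.0404).

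Of 9 replication checkpoint genes 8 were tested, of which none fell and 1 rose (12.5%), against 16.8% and 18.7% of all tested genes. Neither share was above the background. CHEK1, the kinase CHK1, rose, with 8.51 ± 0.32 FPKM in mimic and 7.02 ± 0.331 FPKM in scramble libraries (log2 fold change 0.25, limma adjusted p = 0.00722), and the other 7 did not pass the test. Among these, HUS1 and RAD9A of the checkpoint clamp gave 0.18 and 0.10, and the kinase WEE1 gave -0.14. Medians of the log2 fold change were -0.10 for the further origin and fork genes, -0.04 for the S phase regulators and 0.06 for the checkpoint genes, against -0.19 for the 40 members. The differences between these lists were not tested.

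Some values carry a limit from the gene's surroundings. Of the 40 members 17 share exon bases with another gene, and 7 have pseudogenes that carry their name, with 3 such pseudogenes for PCNA and 3 for RPA2. Whether the counting used strand is not given in the sources used here, so reads in shared bases cannot be told apart. The largest overlaps with a single gene were those of POLA2 (2012 of 5726 bases), GINS4 (1159 of 5475) and MCM2 (1113 of 4902). The overlapping genes of POLA2 and MCM2 have no values in the expression table, so their part cannot be judged. DBF4 shares 142 bases with SLC25A40, which averaged 1.49 FPKM in mimic and 4.04 FPKM in scramble libraries (log2 fold change -1.02). RPA3 shares 118 of its 3232 bases with UMAD1, which also fell (-0.29). RFC5 shares 186 bases with WSB2, which rose by 0.38 while RFC5 fell, with 18.1 FPKM in mimic and 13.7 FPKM in scramble libraries. MCM7 shares 392 of 4386 with AP4M1, which averaged 3.14 FPKM in mimic and 3.57 FPKM in scramble libraries. Of the 19 members that share no exon bases and have no such pseudogene, 13 fell (68.4%) and none rose, with a median log2 fold change of -0.20. Among all tested genes, whatever their overlaps, 16.8% were lower and 18.7% higher. A share for genes without overlaps alone was not computed.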

How the data were processed

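The authors deposited FPKM values for 58051 Ensembl genes in 6 libraries, and a table of 401 genes with a mean signal of normalized counts, a log2 fold change with its SE, a test score and p-values, per the file headers. The submitters' processing notes list DESeq2 1.26.0, featureCounts 2.0.1, HISAT2 2.1.0, Trimmomatic 0.39 and build GRCh38. Annotation, strand setting and FPKM formula: not given in the sources used here. Symbols and GENCODE 29 positions matched 57447 identifiers.

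Genes averaging 0.5 FPKM or more were tested on log2(FPKM + 1) with limma 3.58.1 (R 4.3.3), variance trend, group as the only term and Benjamini-Hochberg adjustment at 0.05. A pseudocount of 1 understates changes of low genes. FPKM times exon length gave whole multiples of 1 step per library; 95.7% to 96.0% of low values lay within 0.02 reads of a whole number. This gave the depths and an alternative with voom. Whether mates of a pair were counted separately is unknown. Per-library values are printed for MCM2 to MCM7, PCNA, and in each complex the members with the smallest and largest p; other lists give up to 4 genes by p. Members and lists were chosen with earlier results of these data known. On simulated data with independent noise, the model recovered all added shifts of 0.5, 1.0 and 2.0 on the log2 scale. The shifts were added only to genes above a set expression level, which POLA1 did not reach. The noise followed a smooth trend with level, so genes with an unusual spread were not simulated. Smaller shifts, the size of most member differences, were not simulated. Alternatives covered pseudocount, filter, scaling, variance model, replicate block and each library left out.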

Additional observations from a re-analysis of the deposited data

How the results depend on the processing

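Over 16 alternatives the number of members called lower lay between 20 and 30, against 28, and the number called higher stayed at 0. The lowest count came without mimic replicate 3, where 1595 of 12912 tested genes were lower, against 2167 in the main fit. The count of 30 came with quantile normalization (2215 of all tested genes lower) and with median scaling (2312). The number of calls thus changed for all genes as well as for members. Of the 28 members, 20 passed in all alternatives that tested them, none changed direction, and 8 (CDC6, MCM3, MCM4, DBF4, PRIM1, RFC2, LIG1 and TIPIN) were lost in at least 1. Of the 12 others, PCNA, PRIM2, FEN1 and RPA1 passed in 1 or 2. The median log2 fold change of the members ranged from -0.22 to -0.19 when 1 library was left out. Replicate numbers shared by the groups gave no clear pairing of the libraries. Same-numbered deviations correlated at -0.062, 0.241 and 0.054, and different-numbered ones between -0.274 and 0.23. With 3 libraries per group these values cannot exclude a weak shared batch. With the replicate block 27 members were lower and 4609 genes passed, against 4584; LIG1 was the member that lost its call.

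Members near 0 changed sign without passing the test. ORC1 gave 0.0004 on the TPM scale and -0.050 to 0.0092 with 1 library left out. GINS3 gave -0.0020 with quantile normalization, -0.0092 with median scaling and -0.026 to 0.041 with 1 library left out. Leaving out 1 library gave -0.031 to 0.091 for GMNN, -0.098 to 0.0020 for MCM10 and -0.195 to 0.028 for CLSPN. The cause was not tested. With voom on recovered reads 5037 of 12871 genes passed. The member with fewest reads, CDC7, rests on 370 reads in its lowest library, which limits the precision of its value.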
